A study of Mus musculus with 16 samples.

Results

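The genes described here are 44 genes of DNA replication and mitosis, measured in macrophages grown from mouse tibial bone marrow. They were taken by symbol from the deposited count table of 35275 genes. Each of the 44 has a single row there, and each passed the filter on low counts that left 13080 genes for testing. By role, 19 act in replication or entry into S phase and 25 in mitosis or the approach to it. Polyadenylated RNA was sequenced from 16 libraries in 4 groups of 4.

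The groups were macrophages with the inducible Smad7 deletion given TGF-β1 (KO TGF-β1), the same genotype without it (KO untreated), floxed macrophages given TGF-β1 (fl/fl TGF-β1) and floxed macrophages without it (fl/fl untreated). KO mice carried Smad7 fl/fl together with CAGGCre-ER, a Cre recombinase under a ubiquitous promoter that tamoxifen activates, so the deletion was not restricted to macrophages. The fl/fl mice carried the floxed alleles alone. Mice of both genotypes were C57BL/6 and received tamoxifen at 20 mg/kg for 5 days. The design text gives their age at that point as 1 month, and marrow was taken 2 weeks later. All cultures were grown with CSF-1, the growth factor that macrophages need to survive and divide, first at 12 ng/ml (24 hours), later at 120 ng/ml (48 hours), in medium with 15% serum. They were then kept without serum for about 12 hours. The treated cultures received TGF-β1 at 10 ng/ml for 4 hours. The labels do not say which libraries came from separate mice, so p-values measure the spread between libraries, which may be technical.

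DNA replication is licensed in G1, when the Mcm helicase is loaded at origins with the help of Cdc6 and Cdt1, and it starts when cyclin-dependent kinases and E2F transcription factors become active. In G2 and mitosis another set of genes, switched on through B-Myb and Foxm1, supplies the kinases, motors and kinetochore proteins that separate the chromosomes. Macrophages from marrow divide in response to CSF-1, and TGF-β is known as a cytokine that arrests or permits division depending on the cell type.

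Total counts per library ran from 16865591 to 23741079. Of 10 macrophage markers 9 had a row, all of them above 1 CPM in every library, and their summed level ran from 16500 to 18700 CPM (a gene's share of the TMM-scaled library total, as edgeR computes it) in KO TGF-β1, from 16300 to 23700 in KO untreated, from 15500 to 19900 in fl/fl TGF-β1 and from 19600 to 21700 in fl/fl untreated libraries. Among markers of other cells, T and NK cell genes summed to at most 0.382 CPM in any library, with Cd3e, Cd3g and Ncr1 at 0 throughout, and granulocyte precursor genes to at most 3.26 CPM. Summed stem and progenitor cell markers were at 20.6 to 28.4 CPM in KO TGF-β1, 12.9 to 20.3 in KO untreated, 13.3 to 20.4 in fl/fl TGF-β1 and 10.1 to 10.8 in fl/fl untreated libraries. Of those 8 markers Cd34 and Meis1 were above 1 CPM in every library, and none of the other 6, Kit, Flt3 and Myb among them, passed 0.886 CPM in any. Neutrophil markers summed to 34.5 to 72.8 CPM over the 16 libraries, of which Mmp8 made up 30.2 to 62.3 CPM while Ly6g and Retnlg were at 0, and megakaryocyte markers to 36.4 to 146 CPM, of which Pf4 made up 35.2 to 144 CPM. Summed endothelial markers were at 84.6 to 131 CPM in KO TGF-β1, 36.2 to 83.3 in KO untreated, 106 to 150 in fl/fl TGF-β1 and 72.9 to 86.4 in fl/fl untreated libraries. Over the 16 libraries Vwf made up 24 to 137 CPM of this sum and Kdr 5.64 to 20.2 CPM. Pecam1, Cdh5, Emcn and Tek did not pass 1.95 CPM in any library. The part of these markers in the results was not tested. These are bulk samples, in which fewer dividing cells and less RNA per cell cannot be told apart.

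The library labelled KO untreated replicate 1 stood apart before any comparison. Pmepa1, a TGF-β target, was at 320 CPM in it, against 1.70, 2.66 and 2.73 CPM in the other KO untreated libraries and 292 to 343 CPM in the KO TGF-β1 libraries. Smad7 itself, the deleted gene, was at 10.3 to 19.7 CPM in KO TGF-β1 libraries and at 5.87, 1.28, 1.64 and 2.00 CPM in KO untreated replicates 1 to 4. In fl/fl libraries it was at 37.3 to 58.3 CPM with TGF-β1 and 3.89 to 6.03 CPM without. For this reason fold changes of the 44 genes that involve KO untreated libraries are shown both with replicate 1 and without it.

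The 44 genes were expressed at very different levels. Per unit length, as FPKM averaged over the 16 libraries, Pcna, the sliding clamp of DNA polymerase, stood highest at 74.5 FPKM. It was followed by Mki67, which coats mitotic chromosomes and is the usual marker of dividing cells (53.8 FPKM), the centromeric histone Cenpa (42.6 FPKM), the mitotic cyclin Ccnb2 (39.7 FPKM) and the topoisomerase Top2a (24.9 FPKM). In all, 21 genes exceeded 10 FPKM. The 4 below 1 FPKM were Mybl2, the gene for B-Myb (0.976), the S-phase cyclins Ccne1 (0.726) and Ccne2 (0.437), and the licensing factor Cdc6 (0.273). Neighbours in this order often overlapped: Mki67 ran from 41.6 to 61.9 FPKM and Cenpa from 31.0 to 70.1 FPKM across libraries. Over the 16 libraries 28 genes varied by less than 2-fold between the lowest and the highest, and 4 by over 4-fold: Cdc6 by 7.89-fold, Cdt1 by 5.20-fold, and Birc5 and Ccne1 by 4.03-fold each. Cdc6 rested on 6 to 48 counts per library and Ccne1 on 11 to 48, whereas Cdt1 had 337 to 1845.

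**Figure D1:**
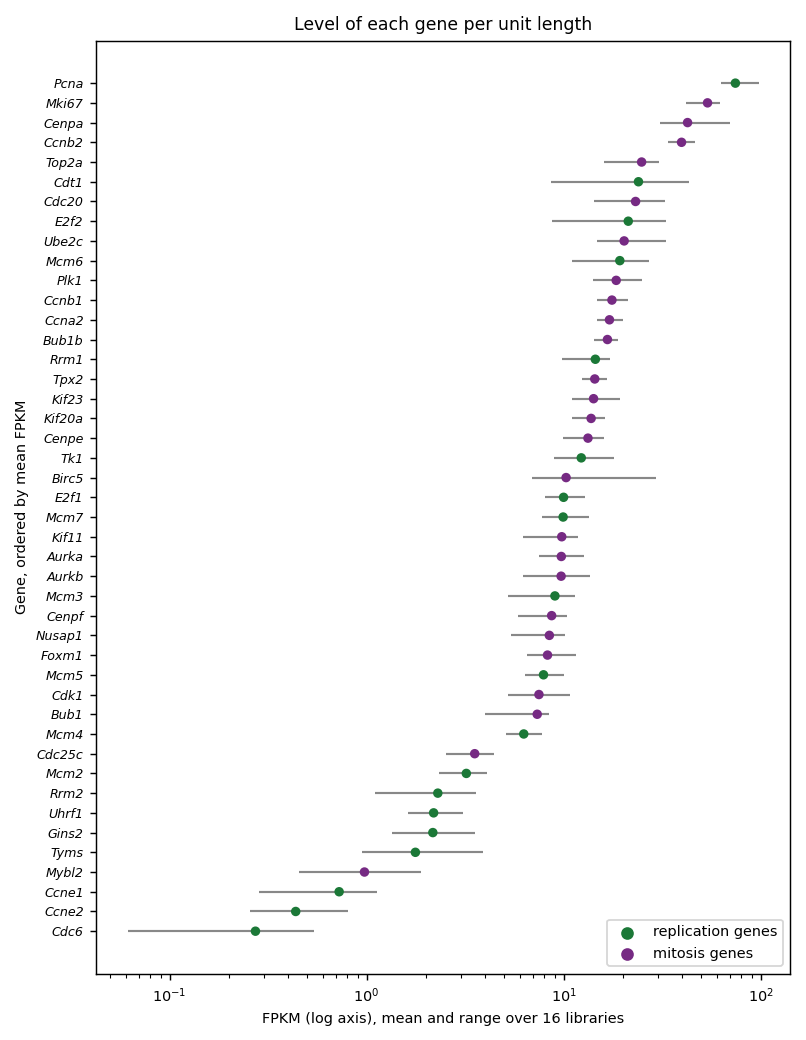
Mean level (point) and range over 16 libraries (line) of each of the 44 genes in FPKM on a log axis, ordered by the mean, with replication genes in green and mitosis genes in purple. Pcna and Mki67 head the order at 74.5 and 53.8 FPKM, and Cdc6 is lowest at 0.273 FPKM.

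TGF-β1 changed few of these genes in fl/fl macrophages. Cdt1, E2f2, Mcm6 and Tk1 were higher and Kif23 was lower in fl/fl TGF-β1 than in fl/fl untreated libraries by edgeR at an adjusted p under 0.05, and the other 39 did not pass. That is 4 higher and 1 lower of 44, where 7.87% of all tested genes were higher and 7.61% lower, so the share called (11.4%) was not above that of genes at large (15.5%). The median log2 fold change over the 44 genes was -0.012, against -0.013 over all tested genes. Without KO untreated replicate 1, which is in neither group but shares the estimate of spread, the same 5 genes were called, with 8.91% of all genes higher and 9.23% lower. For 28 of the 44 genes the 95% interval of the change lay inside a 1.5-fold rise or fall, a count that depends on gene level too. Of the 4 higher genes all belong to the replication group, which had 4 of 19 called. The mitosis group had 1 of 25 called.

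Cdt1, the licensing factor that brings the Mcm helicase to origins, changed most. It was at 80.2, 82.3, 83.2 and 96.2 CPM in fl/fl TGF-β1 libraries, against 20.2, 23.9, 25.4 and 24.4 CPM in fl/fl untreated libraries. The lowest treated library lay far above the highest untreated one. Its log2 fold change was 1.86 ± 0.30 (SE, edgeR adjusted p = 0.00109). Cdt1 (ENSMUSG00000006585) lies on chromosome 8, 122568015 to 122573128 (mm10). The annotated gene Gm20388 spans it on the same strand and had 0 counts in every library.

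E2f2, an E2F transcription factor of the activating class, was next. Its level was 160, 143, 138 and 150 CPM with TGF-β1 and 43.1, 41.4, 45.7 and 47.7 CPM without in fl/fl macrophages. The groups were far apart and each was tight, at 148 ± 9.63 and 44.5 ± 2.77 CPM (SD, n = 4 each). The log2 fold change was 1.73 ± 0.31 (edgeR adjusted p = 0.00183). Its relative E2f1 did not pass, at 27.5 ± 3.35 CPM with TGF-β1 and 30.7 ± 4.57 CPM without (SD, n = 4 each), a log2 difference of -0.16 with a 95% interval of -0.43 to 0.11. E2f2 (ENSMUSG00000018983) lies on chromosome 4, 136172394 to 136196057.

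Among the 6 subunits of the Mcm helicase, Mcm6 alone was called in the fit of all libraries. It was at 113, 111, 111 and 107 CPM in fl/fl TGF-β1 libraries and at 55.6, 57.8, 60.5 and 68.4 CPM in fl/fl untreated libraries, with no overlap. The log2 fold change was 0.87 ± 0.19 (edgeR adjusted p = 0.00452). The other 5 subunits had log2 changes of 0.43 for Mcm3, 0.25 for Mcm4, 0.20 for Mcm7, 0.19 for Mcm2 and 0.02 for Mcm5, and none passed there. With replicate numbers as a block and KO libraries left out, Mcm3 was called as well (0.46 log2, edgeR adjusted p = 0.0224). That was the only 1 of 28 alternatives to call it. Mcm3 was at 32.2, 28.8, 34.5 and 38.7 CPM with TGF-β1 and 20.3, 18, 28.7 and 32.6 CPM without. It was higher for each replicate number although the groups overlapped. Mcm5 was at 30.0, 25.3, 27.1 and 30.4 CPM with TGF-β1 and 22.1, 25.6, 29.1 and 34.3 CPM without, and the treated values fell inside the untreated range. Mcm6 (ENSMUSG00000026355) lies on chromosome 1, 128331590 to 128359664. That the subunits differ from each other in response was not tested.

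The rest of the licensing and nucleotide genes were less even. Tk1, the thymidine kinase that recycles thymidine for DNA synthesis, was at 34.3, 32.2, 31.5 and 42.4 CPM with TGF-β1 and 22.4, 26.2, 25.9 and 27.3 CPM without in fl/fl macrophages, again without overlap. Its log2 fold change was 0.46 ± 0.145 (edgeR adjusted p = 0.0379). With replicate numbers as a block, its edgeR adjusted p was 0.0536 and the call was lost. The call was also lost when any 1 fl/fl untreated library, fl/fl TGF-β1 replicate 1 or 4, KO untreated replicate 4 or KO TGF-β1 replicate 2 was left out, and it held in 16 of 28 alternatives. Tk1 overlaps Afmid on the opposite strand by 169 bases, and whether counting used strand is not stated. The other nucleotide genes did not pass: the ribonucleotide reductase subunits Rrm1 (-0.19) and Rrm2 (0.25) and the thymidylate synthase Tyms (0.03, all log2). Cdc6 had the lowest value, at -1.06 ± 0.44 (edgeR adjusted p = 0.118), on levels of 0.485, 0.313, 1.39 and 0.521 CPM with TGF-β1 and 1.32, 1.75, 1.04 and 1.64 CPM without. Pcna, at 113, 119, 119 and 111 CPM with TGF-β1 and 96.5, 105, 116 and 149 CPM without, differed by -0.02 log2 with an interval of -0.26 to 0.23. Uhrf1, which keeps DNA methylation through replication, differed by -0.06 and Gins2, a part of the active helicase, by 0.25, with the interval of each including 0.

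**Figure D2:**
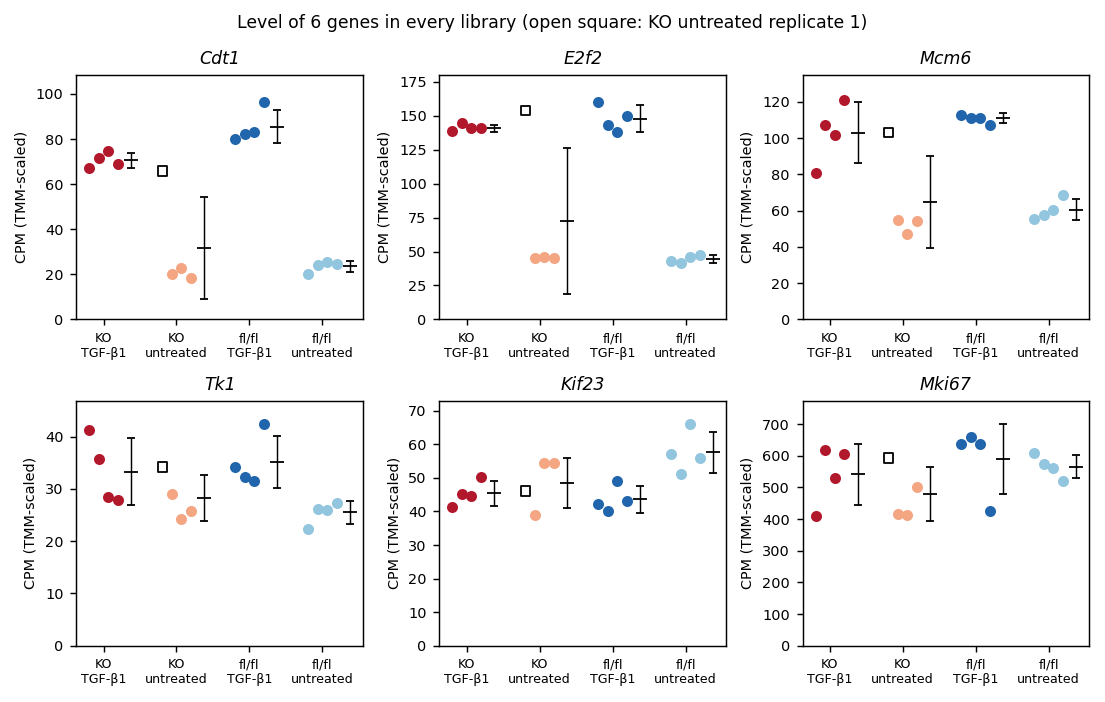
Level in CPM of 6 genes in each of the 16 libraries, grouped as KO TGF-β1, KO untreated, fl/fl TGF-β1 and fl/fl untreated, with the group mean and SD beside the points. For Cdt1, E2f2 and Mcm6 the treated groups stand above the untreated ones except that KO untreated replicate 1 (open square) lies at treated levels, at 65.8, 154 and 103 CPM.

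Among 25 genes of mitosis and its approach, 20 had a 95% interval inside a 1.5-fold rise or fall in fl/fl macrophages. Of all tested genes 42.9% did. The width of an interval depends on gene level too, and the comparison was not matched for level. It is therefore not read as a result about the mitosis genes. Kif23, a kinesin of the central spindle that is needed for the cells to separate, was the one member of this group called. It was at 42.1, 40.1, 49.2 and 43.1 CPM with TGF-β1 and at 57.1, 51.3, 66.2 and 56.0 CPM without, with the highest treated library just under the lowest untreated one. The log2 fold change was -0.40 ± 0.118 (edgeR adjusted p = 0.0265). The call was lost without fl/fl untreated replicate 1 or 3 or without fl/fl TGF-β1 replicate 1 or 2, and it held in 23 of 28 alternatives. Kif23 (ENSMUSG00000032254) lies on chromosome 9, 61917280 to 61946799. Aurkb, the kinase that corrects chromosome attachment, had -0.44 ± 0.152 and missed the threshold (edgeR adjusted p = 0.0578). It was called lower in 6 of 28 alternatives, among them DESeq2, both limma fits and the fit of the fl/fl libraries alone with the replicate block, where its edgeR adjusted p was 0.0409. Among the spindle genes Nusap1 (-0.32, adjusted p = 0.131) and Kif11 (-0.28, adjusted p = 0.200) also did not pass by edgeR. The values of Kif20a (-0.05) and Tpx2 (-0.05), like the kinetochore genes Cenpe (0.14) and Cenpf (-0.11), were closer to 0.

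The usual markers of division did not pass the test. Mki67 was at 638, 660, 637 and 425 CPM in fl/fl TGF-β1 libraries and 609, 574, 560 and 520 CPM in fl/fl untreated libraries. The fourth treated library lay below every untreated one while the other 3 lay above, and the change was 0.06 ± 0.158 log2 with an interval of -0.27 to 0.39. Top2a was at 131, 131, 145 and 84.8 CPM with TGF-β1 and 140, 120, 147 and 141 CPM without (-0.16 log2, interval -0.48 to 0.16). Ccnb1, the cyclin partner of Cdk1, was at 38.7, 40.1, 46.6 and 37.8 CPM with and 43.7, 41.1, 49.9 and 51.9 CPM without (-0.19 log2, interval -0.41 to 0.03). Cdk1, the kinase that drives entry into mitosis, was at 16, 17.9, 25.3 and 25.1 CPM with and 15.9, 16.4, 21.0 and 22.8 CPM without (0.15 log2, interval -0.26 to 0.56). For these 4 genes the treated and untreated ranges overlapped.

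The remaining genes did not pass either. The A-type cyclin Ccna2 and the B-type cyclin Ccnb2 differed by -0.16 and 0.07 log2, and the phosphatase Cdc25c, which activates Cdk1, by -0.07. Foxm1 and Mybl2, which drive the late cell cycle programme, differed by 0.02 and -0.47, and the G1 cyclins Ccne1 and Ccne2 by 0.20 and -0.09 on few counts. The kinases Plk1 and Aurka differed by -0.05 and -0.01, and the checkpoint kinase Bub1 and its relative Bub1b by -0.24 and 0.07. Birc5 (survivin) and Cdc20, which activates the anaphase-promoting complex, differed by 0.10 and 0.04, the ubiquitin-conjugating enzyme Ube2c by -0.15 and Cenpa by -0.03. Each of these intervals included 0.

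Promoters of 35 of the 44 genes were found in RefSeq (GRCm38.p6), as windows of 300 bases, 250 before and 50 after the annotated start. Mcm4, Gins2, Foxm1, Ccne2, Ccna2, Cdc25c, Aurkb, Kif20a and Tpx2 had no entry there. Both strands were searched for the CHR element TTTGAA, the CCAAT box CCAAT and the E2F sites TTTCCCGC, TTTGGCGC, TTTGCCGC and TTTCGCGC. An E2F site was found in 8 of the 35 windows (22.9%) against 2.26% of 32851 promoters, a CCAAT box in 26 (74.3%) against 37.4%, and a CHR element in 14 (40%) against 17.9%. A match is a description of the letters and says nothing of binding. The 250 bases before the start are printed for Mcm6, which was called, for Mcm5, which was not, for E2f2 and Kif23, which were called, and for Cdk1, a mitotic gene that was not. Capitals mark the motifs, 5′ to 3′ on the strand of the gene. The RefSeq start can differ from the gene boundary of the count table.
Mcm6 (chr1:128359706-128359955, minus strand): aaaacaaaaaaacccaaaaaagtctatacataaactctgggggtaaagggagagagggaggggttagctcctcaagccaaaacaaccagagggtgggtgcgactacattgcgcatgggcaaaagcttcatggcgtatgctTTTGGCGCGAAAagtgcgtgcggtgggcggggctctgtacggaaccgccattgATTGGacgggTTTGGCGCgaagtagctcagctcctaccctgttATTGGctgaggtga
Mcm5 (chr8:75109259-75109508, plus strand): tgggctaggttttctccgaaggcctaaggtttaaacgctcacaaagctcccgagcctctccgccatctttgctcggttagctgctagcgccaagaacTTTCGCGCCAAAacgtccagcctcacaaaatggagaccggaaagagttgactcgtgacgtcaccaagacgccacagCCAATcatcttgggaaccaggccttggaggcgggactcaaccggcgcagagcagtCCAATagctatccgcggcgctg
E2f2 (chr4:136172024-136172273, plus strand): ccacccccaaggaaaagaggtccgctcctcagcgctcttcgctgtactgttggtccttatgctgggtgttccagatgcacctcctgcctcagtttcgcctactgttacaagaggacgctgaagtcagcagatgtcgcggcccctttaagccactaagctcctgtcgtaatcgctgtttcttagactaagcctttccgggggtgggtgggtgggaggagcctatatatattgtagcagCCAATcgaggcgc
Kif23 (chr9:61946800-61947049, minus strand): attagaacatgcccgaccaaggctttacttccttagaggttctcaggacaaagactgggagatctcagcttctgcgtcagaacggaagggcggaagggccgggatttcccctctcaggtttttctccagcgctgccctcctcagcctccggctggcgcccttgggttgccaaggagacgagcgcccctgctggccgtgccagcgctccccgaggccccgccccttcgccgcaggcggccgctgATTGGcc
Cdk1 (chr10:69352913-69353162, minus strand): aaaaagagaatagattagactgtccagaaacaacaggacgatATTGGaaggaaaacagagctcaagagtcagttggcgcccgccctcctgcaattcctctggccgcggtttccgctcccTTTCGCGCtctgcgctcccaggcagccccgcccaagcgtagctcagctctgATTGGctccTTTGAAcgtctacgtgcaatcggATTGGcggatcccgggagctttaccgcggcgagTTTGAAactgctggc

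In the Mcm6 window an E2F site begins at position -110, counted from the start, overlapping another of the opposite strand at -106, and a further one begins at -47. Mcm5, whose level did not pass the test, carries the same overlapping pair in the opposite order, at -153 and -149. The E2f2 stretch holds a CCAAT box at -13, and beyond the printed bases an E2F site begins at 40, after the start. Cdt1 had an E2F site only after the start, at 33, so its upstream bases are not printed, and Tk1 had none of these motifs. The Kif23 stretch holds a CCAAT box at -7, and a CHR element begins at 3, after the start. Cdk1 has an E2F site at -131 and CHR elements at -71 and -15. Among the genes called in fl/fl macrophages the E2F letters occurred in Cdt1, E2f2 and Mcm6 and not in Tk1 or Kif23. Among genes not called they occurred in Mcm3, Mcm5, Mcm7, Cdc6 and Cdk1. A link between these letters and the calls was not tested.

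In KO macrophages Cdt1 and Mcm6 rose with TGF-β1, and without KO untreated replicate 1 E2f2 did too. With all libraries 2 of 44 genes were higher and 0 lower in KO TGF-β1 than in KO untreated libraries, where 2.19% of all tested genes were higher and 2.97% lower. Without that library 3 were higher and 0 lower, against 8.33% and 6.88% of all genes. Cdt1 was at 67.1, 71.5, 74.8 and 69.0 CPM in KO TGF-β1 libraries and at 65.8, 20.3, 22.7 and 18.5 CPM in KO untreated replicates 1 to 4. Replicate 1 lay just under the treated range and far above the others. Cdt1 rose by 1.15 ± 0.30 log2 with it (edgeR adjusted p = 0.0374) and by 1.81 without it (edgeR adjusted p = 1.68e-09). The Cdt1 call held in 11 of 29 alternatives and that of Mcm6 in 9. Leaving out any 1 library other than KO untreated replicate 1 took the KO count to 0, except that Cdt1 stayed called without fl/fl untreated replicate 1.

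KO untreated replicate 1 was also at treated levels for E2f2 and Mcm6. E2f2 was at 139, 145, 141 and 141 CPM in KO TGF-β1 libraries and at 154, 45.2, 45.7 and 45.5 CPM in KO untreated replicates 1 to 4. The first of these exceeded every treated library, and the other 3 lay close together. E2f2 had 0.96 ± 0.30 log2 with that library, short of the threshold (edgeR adjusted p = 0.0786, and 0.0388 with the replicate block), and 1.67 without it (edgeR adjusted p = 3.00e-10). Mcm6 was at 80.7, 107, 102 and 121 CPM with TGF-β1 and at 103, 55.1, 47 and 54.5 CPM without. It rose by 0.66 ± 0.19 with replicate 1 (edgeR adjusted p = 0.0488, and 0.0639 with the replicate block) and by 1.00 without it (edgeR adjusted p = 6.41e-06).

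No mitotic gene was called in KO macrophages. Kif23, lower in fl/fl, was at 41.4, 45.3, 44.6 and 50.4 CPM with TGF-β1 and 46.1, 38.9, 54.3 and 54.5 CPM without, with overlap, and differed by -0.09 (adjusted p = 0.802 by edgeR, interval -0.34 to 0.15), and by -0.09 without replicate 1. Mki67 was at 411, 619, 531 and 605 CPM with and 593, 416, 412 and 501 CPM without, a difference of 0.17 with an interval of -0.16 to 0.51. Without replicate 1 the Mki67 difference was 0.32 with an interval of -0.01 to 0.65 (edgeR adjusted p = 0.226). Top2a (104, 145, 128 and 145 CPM with, 155, 122, 114 and 134 CPM without) differed by -0.01, or 0.11 without replicate 1, and Pcna (112, 102, 118 and 114 with, 98.1, 123, 107 and 106 without) by 0.04, or 0.02. The ranges overlapped for all 4. Tk1 had 0.23 ± 0.145 log2 (edgeR adjusted p = 0.468) and 0.37 without replicate 1 (edgeR adjusted p = 0.120), so it did not pass here. Mcm5 was at 20.3, 29.4, 25.5 and 28.3 CPM with TGF-β1 and 25.8, 32.4, 23.8 and 24.2 CPM without in KO macrophages (-0.04 log2, and -0.02 without replicate 1). Ccnb1 was at 42.4, 41.4, 39.9 and 45.9 CPM with and 46.1, 50.2, 43.2 and 40.1 CPM without (-0.08 log2, and -0.04 without replicate 1). Cdk1 was at 28.1, 22.9, 20.7 and 18.4 CPM with and 26.2, 29.6, 20.8 and 17.8 CPM without (-0.07 log2, and 0.02 without replicate 1). The groups overlapped in these 3 genes as well. Over all members 30 of 44 intervals lay inside a 1.5-fold rise or fall, and 25 without replicate 1. These counts are not set against all tested genes and are not read as a result about the members.

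**Figure D3:**
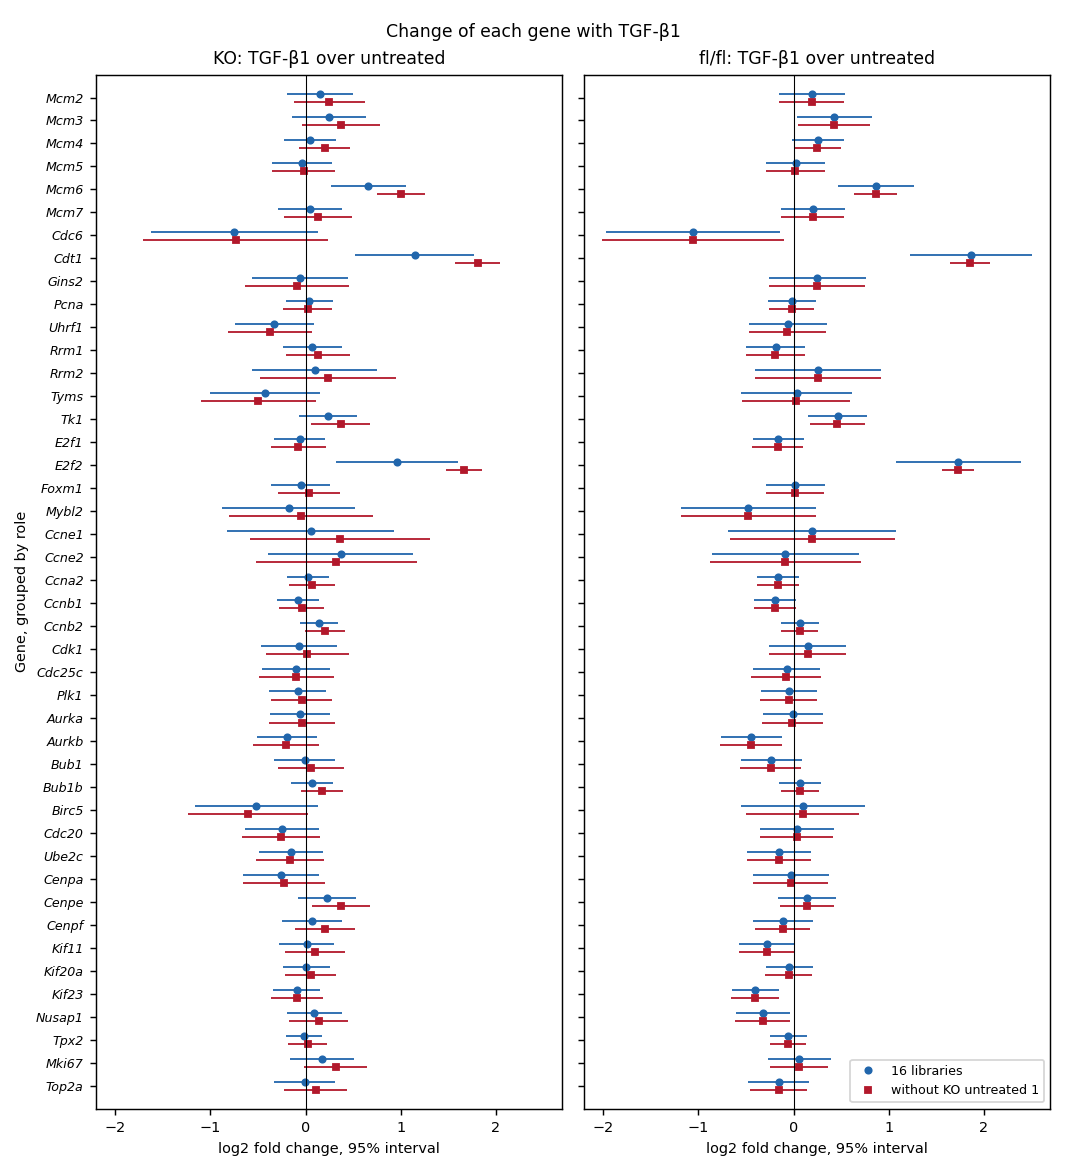
Log2 fold change of each of the 44 genes for TGF-β1 over untreated, with 95% intervals, in KO (left) and fl/fl (right) macrophages. Circles use 16 libraries and squares leave out KO untreated replicate 1, which moves Cdt1 in KO to 1.81 and E2f2 to 1.67 log2.

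None of the 44 genes was called between genotypes by edgeR. Between KO and fl/fl untreated libraries 0 of 44 were called, where 0.0459% of all tested genes were, and 0 were called without KO untreated replicate 1, where 0.0994% were. At an unadjusted p under 0.05, which a share of 0.05 of unchanged genes passes by chance, 3 and 2 members passed in those fits. DESeq2 and limma also called 0. The 3 lowest p belonged to E2f2 (0.70 log2), Birc5 (0.70) and Kif23 (-0.25), with edgeR adjusted p between 0.434 and 0.457. E2f2 differed by 0.01 without replicate 1. Birc5 was at 33.1, 93.8, 26.9 and 29.6 CPM in KO untreated and 23.3, 24.6, 32.3 and 32.8 CPM in fl/fl untreated libraries, with KO untreated replicate 2 far above the rest, and its difference was 0.08 log2 without that library. Kif23 was at 46.1, 38.9, 54.3 and 54.5 CPM in KO and 57.1, 51.3, 66.2 and 56.0 CPM in fl/fl untreated libraries, which overlapped, and it differed by -0.25 without KO untreated replicate 1 as well. Birc5 differed by 0.80 and Mki67 by -0.37 in that fit, at edgeR adjusted p of 0.371 and 0.385. With all libraries the untreated genotypes overlapped in every member. Without KO untreated replicate 1, Mcm6, Cenpe, Cenpf and Mki67 were lower in every KO untreated library than in any fl/fl untreated library, and Cdc20 was higher. How many genes at large separate like this was not computed, so these separations are not read as a result about the members. Mcm6, Cenpe, Cenpf and Mki67 are all of at least 4000 bases, while the other members of that length overlapped. The part of length in this was not tested.

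With TGF-β1, too, 0 of 44 were called between KO and fl/fl, where 0.0382% of all genes were, or 0.0612% without KO untreated replicate 1. None had an unadjusted p under 0.05 with all libraries and 1 had without that library, where a share of 0.05 of unchanged genes passes by chance. DESeq2 and limma called 0. The lowest p belonged to Aurkb (0.29 log2), Nusap1 (0.25) and Uhrf1 (-0.35). Aurkb was at 21.5, 19.0, 16.6 and 17.0 CPM in KO TGF-β1 and 14.9, 13, 19.7 and 13.2 CPM in fl/fl TGF-β1 libraries. Nusap1 was at 26.7, 34.6, 30.6 and 32.9 CPM in KO and 28.8, 27.1, 29.7 and 19.3 CPM in fl/fl. The 2 genotypes overlapped in both genes. Uhrf1 was at 5.81, 8.10, 5.97 and 6.04 CPM in KO and 7.16, 8.78, 7.02 and 10.1 CPM in fl/fl TGF-β1 libraries, again with overlap. Cdt1, not called at -0.28 log2 (interval -0.89 to 0.34), was lower in every KO TGF-β1 library than in any fl/fl TGF-β1 library. Mybl2, not called at 0.35 log2, was higher in every KO TGF-β1 library (3.45 to 3.70 CPM) than in any fl/fl TGF-β1 library (2.45 to 3.32 CPM). The share of all tested genes separated in this way was not computed, so these separations are not read as a result about the members.

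The difference of the 2 TGF-β1 responses, KO minus fl/fl, was called for 0 of 44 genes with all libraries (0% of all genes) and for 0 without KO untreated replicate 1 (0%). At an unadjusted p under 0.05 there was 1 member in each, Nusap1, where a share of 0.05 of unchanged genes passes by chance. The Nusap1 difference was 0.41 and 0.46 log2, with edgeR adjusted p of 0.993 and 0.982. DESeq2 and limma called 0 members. Nusap1 in untreated libraries was at 30.3, 30.0, 25.7 and 31.0 CPM in KO and 32.6, 27.3, 35.7 and 35.3 CPM in fl/fl. Counts of narrow intervals are not set against all genes here and are not read as a result about the members. For 17 of 44 genes the interval of the difference lay inside 1.5-fold in either direction, and for 21 without KO untreated replicate 1. For E2f2 the difference was -0.77 with an interval of -1.67 to 0.13 with it, and -0.06 with an interval of -0.30 to 0.18 without it. For Cdt1 the values were -0.72 (-1.59 to 0.16) and -0.05 (-0.35 to 0.25), and for Mcm6 -0.21 (-0.76 to 0.35) and 0.14 (-0.20 to 0.47). For Kif23 they were 0.31 (-0.04 to 0.66) and 0.32 (-0.06 to 0.69), so a lower Kif23 in fl/fl and an uncalled one in KO were not shown to differ.

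Other genes of the pathway, from lists made with earlier results of these data known, are set here against the 7.87% of all tested genes that were higher and the 7.61% that were lower with TGF-β1 in fl/fl macrophages. Of 42 other replication genes, 2 were higher and 2 lower with TGF-β1 (9.52% called, against 15.5% of all genes). Dna2, a nuclease of lagging-strand processing, rose by 0.96 ± 0.25 log2 and Lig1, the replicative DNA ligase, by 0.68 ± 0.19. Mcm10, which joins helicase to polymerase, fell by 0.49 ± 0.15 on the log2 scale. For Dna2, Lig1 and Mcm10 edgeR gave adjusted p values between 0.0144 and 0.0328. Of 66 other mitosis genes 0 were higher and 3 lower (4.55% called), with Ckap2l (-0.59 ± 0.13) and Hmmr (-0.54 ± 0.13), both of the spindle, the lowest. Of 32 other cell cycle regulators 2 were higher and 6 lower (25% called). Lin9, part of the MuvB complex that works with B-Myb, rose by 1.04 ± 0.23 and the mitosis-delaying kinase Wee1 by 0.77 ± 0.22. The G1 kinase Cdk6 (-1.07 ± 0.17) and the retinoblastoma gene Rb1 (-1.01 ± 0.22) fell.

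In KO macrophages 0 of the 42, 0 of the 66 and 3 of the 32 were called with all libraries, where 5.17% of all genes were. E2f3 rose by 0.58 ± 0.15 log2, while Skp2, which marks the Cdk inhibitor p27 for destruction, fell by 0.65 ± 0.16 and Rbl1, the gene of the pocket protein p107, by 0.59 ± 0.15, at edgeR adjusted p between 0.0292 and 0.0374. Without replicate 1 the log2 changes were 0.75 for E2f3, -0.64 for Skp2 and -0.67 for Rbl1. Among the other mitosis genes the lowest p belonged to Cenpt, a kinetochore gene, at -0.60 (edgeR adjusted p = 0.122), and without replicate 1 it passed at -0.70 (edgeR adjusted p = 0.0290). Leaving out KO untreated replicate 1, 1 replication gene was higher and 2 lower, 2 mitosis genes higher and 1 lower, and 4 regulators higher and 3 lower, in a fit that called 15.2% of all genes. Dna2 then rose by 1.12 log2 and Lin9 by 1.17 in KO. Between genotypes no gene of these 3 lists was called by edgeR in either treatment, or for the difference of the responses, with or without KO untreated replicate 1. The lowest p in untreated libraries belonged to Gmnn (0.53 log2), the inhibitor of Cdt1, the cytokinesis gene Anln (-0.30) and Cdk6 (-0.71), at edgeR adjusted p from 0.212 to 0.414, and their differences without replicate 1 were 0.52, -0.35 and -0.60. With TGF-β1 they belonged to Fen1 (-1.85, on very low levels), Kif15 (0.32) and Cks2 (0.46), and for the difference to Fen1 (-2.21), Hmmr (0.42) and Cdk7 (-0.35), all far from the threshold.

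The mean log2 CPM of the mitotic genes ran from 5.32 to 5.46 in KO TGF-β1, 5.29 to 5.55 in KO untreated, 5.24 to 5.47 in fl/fl TGF-β1 and 5.27 to 5.55 in fl/fl untreated libraries. All replication genes together ran from 4.12 to 4.26, 3.79 to 4.22, 4.13 to 4.30 and 3.70 to 4.11 in the same order of groups. For them fl/fl TGF-β1 libraries lay above fl/fl untreated ones. Cdt1, E2f2 and Mcm6 were the members that rose most in fl/fl macrophages. With these genes set aside, the replication genes ran from 3.66 to 3.80, 3.53 to 3.85, 3.62 to 3.83 and 3.42 to 3.86. The 4 ranges overlapped for the mitotic genes and for this reduced set, from which the largest rises had been taken out.

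**Figure D4:**
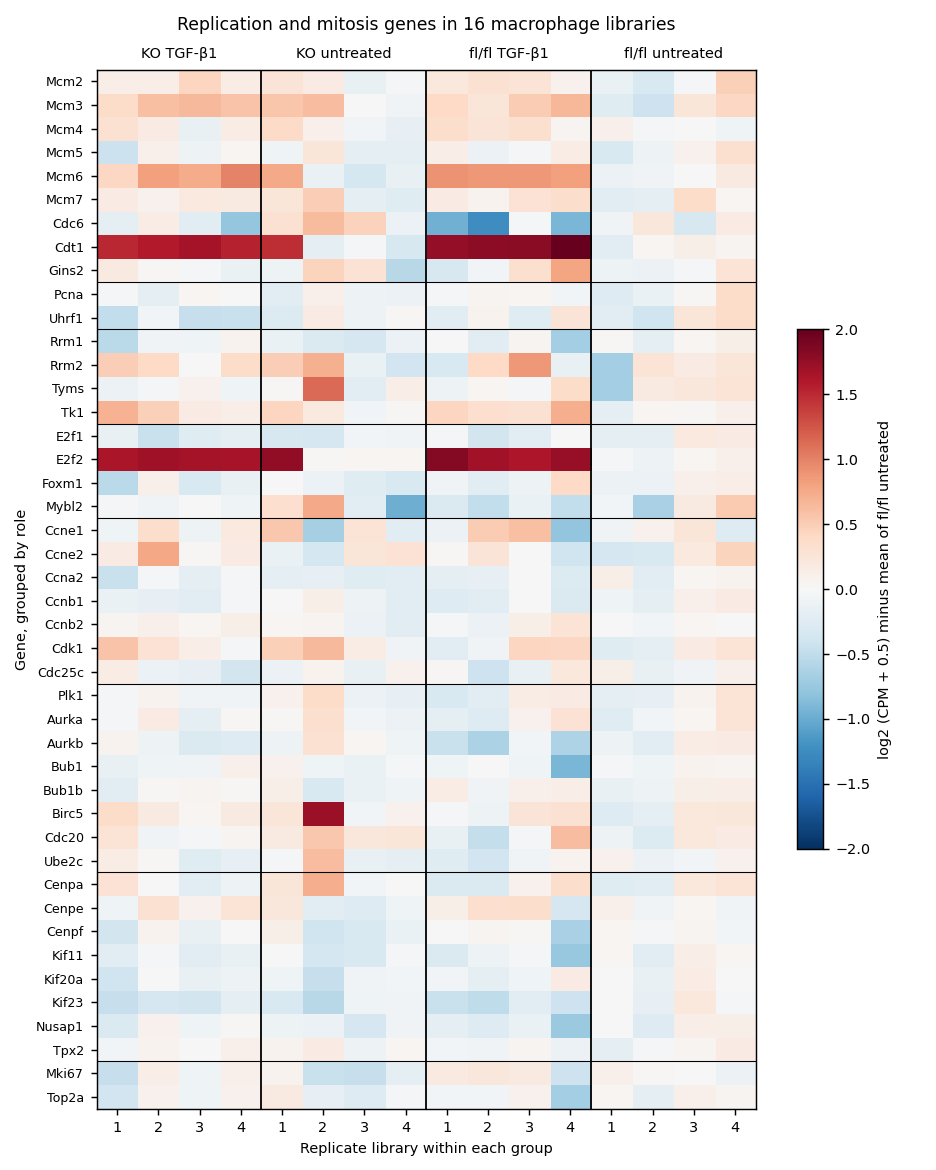
Level of the 44 genes in each library as log2 (CPM + 0.5) minus the mean of the fl/fl untreated libraries, with libraries grouped as KO TGF-β1, KO untreated, fl/fl TGF-β1 and fl/fl untreated and genes grouped by role. Cdt1 and E2f2 are dark red, and Mcm6 a lighter red, in every treated library and in KO untreated replicate 1, while Birc5 stands out in KO untreated replicate 2 at 93.8 CPM.

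Some of the spread between libraries followed gene length. In fl/fl TGF-β1 replicate 4 the 8 members of at most 2000 bases had a median log2 difference of 0.33 from the other libraries of the group and the 10 members of at least 4000 bases one of -0.39. Cenpf (65.8 CPM, against 104 to 108 in the other 3) and Mki67 (425 against 637 to 660) were low in that library. Bub1, which at 3421 bases is in neither length class, was low too (13.9 against 25.0 to 26.4). Not every member followed its length there. Foxm1, of 4399 bases, was high (51.2 CPM against 33 to 36.7), and Aurkb, of 1950 bases, was at 13.2 CPM against 13 to 19.7. In KO untreated replicate 2 the medians were 0.29 and -0.20, in KO TGF-β1 replicate 1 they were 0.15 and -0.33, and in KO untreated replicate 1 -0.07 and 0.36. All tested genes of those lengths had the same signs in these libraries, with medians of 0.16 and -0.17, 0.26 and -0.15, 0.22 and -0.17, and -0.13 and 0.06 in that order. The long members include E2f2 and Mcm6, which stood at treated levels in KO untreated replicate 1. The part of length in the values of single genes was not tested. When KO untreated replicates 1 and 2 and fl/fl TGF-β1 replicate 4 were all left out, 6 members were called in fl/fl macrophages, with Mcm4 added, and 4 in KO macrophages, namely Cdt1, E2f2, Mcm6 and Mcm3. That fit also called more genes in all, 2686 of 13080 in fl/fl and 2372 in KO macrophages.

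**Figure D5:**
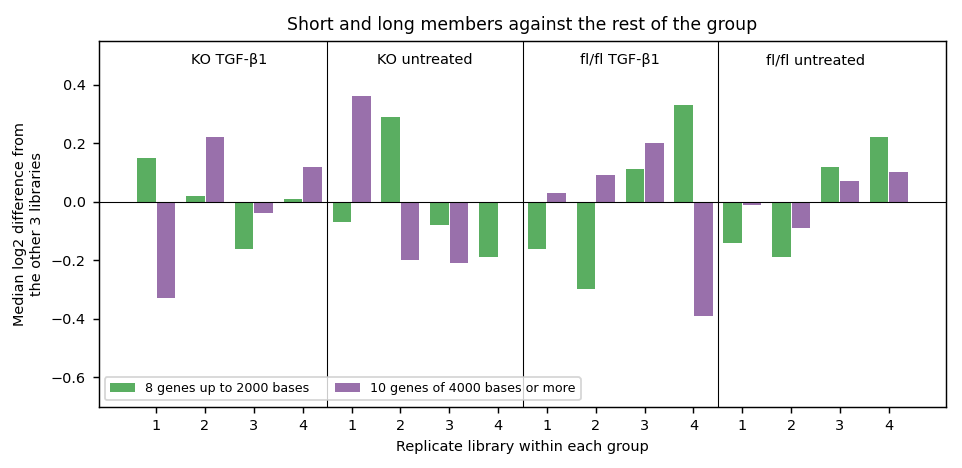
Median log2 difference of each library from the other 3 of its group, for the 8 members of up to 2000 bases (green) and the 10 members of 4000 bases or more (purple). The bars point opposite ways most clearly in fl/fl TGF-β1 replicate 4, at 0.33 and -0.39.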

How the data were processed

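RNA-seq of 16 mouse macrophage libraries was analysed from the deposited tables. The tools listed are Cufflinks 2.1.1, TopHat2 2.0.9 and HTSeq 0.6.1, per the submitters' processing notes, which give no step for each. Both GRCm38.p6 and mm10 stand there as builds, and coordinates are printed as the deposited table has them. The labels' protocol speaks of 8 libraries, while 16 samples are listed. The deposited counts are raw reads per gene, whole numbers made by the authors, and strand use in counting is not given in the sources used here. The deposited FPKM values are the authors' counts divided by gene length and library total, since all positive values matched that within 0.1%. FPKM was used for levels between genes. Totals per library ran from 16865591 to 23741079, and no 2 libraries were identical.

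Counts were scaled by TMM in edgeR 4.0.16 under R 4.3.3, filtered with filterByExpr on the 4 groups (13080 genes left), and fitted over 16 libraries with a mean per group by robust quasi-likelihood. Its F-tests were adjusted by Benjamini-Hochberg over all tested genes at 0.05. An adjusted p is edgeR's unless said otherwise, and ± after a log2 fold change is its SE. Comparisons were TGF-β1 against untreated per genotype, KO against fl/fl per treatment, and the difference of the responses. The same steps were run on simulated counts of even spread. That simulation held no outlying library, so it does not bear on KO untreated replicate 1. Alternatives were each library left out, DESeq2 1.42.0, RLE scaling, no filter, limma 3.58.1 on log2 FPKM with a pseudocount of 0.1 or 1, a replicate block, no robust estimation, a minimum change of 1.5-fold and fits of the compared groups alone.

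The members and lists were chosen with earlier results of these data known. Per-library values are given for members past the threshold, for the 3 lowest p where none passed, and for Mki67, Top2a, Pcna, Mcm5, Ccnb1 and Cdk1. From each other list up to 2 highest and 2 lowest called genes are named, or the lowest p, and 1 gene that this rule names is not reported here. Fits without KO untreated replicate 1 in the smaller designs, and the fit without 3 libraries, were added after seeing the data. Replicate numbers are taken from the sample titles. In fl/fl libraries same-numbered treated and untreated libraries deviated together (correlations 0.139 to 0.237 for every number), which was read as possible pairing. Genes of at most 2000 bases had median deviations of -0.08, -0.07, 0.05 and 0.12 in fl/fl untreated replicates 1 to 4. In fl/fl TGF-β1 replicates 1 to 4 these were -0.05, -0.11, 0.04 and 0.16. The signs match for every number, so pairing and a shared skew by length cannot be told apart. In KO libraries the correlations were positive too (0.045 to 0.294), but only 0.045 and 0.073 for numbers 1 and 2, and were not read as pairing. No cut-off was set for this reading. Between genotypes they were all negative (-0.242 to -0.003).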

Additional observations from a re-analysis of the deposited data

Results flagged for a closer look

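Each member was examined in each group for a library far from the other 3, which gave 176 tests, of which 16 stood out. Chance alone gives about 1 in 20. KO untreated replicate 1 was high for Cdt1 (65.8 CPM, against 18.5 to 22.7 in the others), E2f2 (154 against 45.2 to 45.7) and Mcm6 (103 against 47 to 55.1).

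KO untreated replicate 2 was high for Birc5 (93.8 CPM against 26.9 to 33.1), Ube2c (69.3 against 39.5 to 44) and Cdc20 (55.8 against 43.4 to 45.3), and low for Kif20a (37.9 against 49.1 to 50.2). The library fl/fl TGF-β1 replicate 4 was low for Mki67 (425 CPM against 637 to 660), Cenpf (65.8 against 104 to 108) and Bub1 (13.9 against 25.0 to 26.4).

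The library fl/fl untreated replicate 1 was low for Rrm2 (2.45 CPM against 4.78 to 5.18) and Tyms (3.71 against 7.16 to 7.70). Among KO TGF-β1 libraries, replicate 2 was high for Uhrf1 (8.10 CPM against 5.81 to 6.04) and Ccne2 (2.40 against 1.22 to 1.40), replicate 3 was high for Mcm2 (13.4 against 10.8 to 10.9), and replicate 1 was low for Bub1b (53.4 against 62.6 to 64.0).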

How the results depend on the processing

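Cdt1 and E2f2 kept their call in fl/fl macrophages under every one of the 28 alternatives run, and no log2 fold change turned sign in the comparison in which its gene was called. The fl/fl count of 5 ran from 3 to 7 as libraries were left out in turn (1379 to 2372 of all genes) and was 2 with a minimum change of 1.5-fold (441). Leaving libraries out in turn gave a KO count between 0 and 3 around the reported 2, the 3 coming without KO untreated replicate 1 (93 to 1989 of all genes). It was 0 with no filter on low counts (446 of all genes called) and 0 with the minimum change (3). It was also 0 in a fit of the KO libraries alone and 0 in that fit with a replicate block, which called 0 of all genes, so these say nothing particular about the members. The KO libraries alone without replicate 1 gave 3 members (1839 genes). The count was 4 without KO untreated replicates 1 and 2 and fl/fl TGF-β1 replicate 4. DESeq2 called 6 members in fl/fl (2396 genes) and 3 in KO (1093 genes). With a replicate block over all libraries the counts were 4 in fl/fl, where Tk1 was lost, and 2 in KO, where Mcm6 was lost and E2f2 gained, and the block changed no other call there or between genotypes. With the block and no KO libraries, 7 were called in fl/fl, adding Mcm3 and Aurkb (2517 genes). The genotype comparisons and the difference of the responses gave 0 members in every alternative run. Over all members, comparisons and alternatives 56 results fell short of the threshold that they had passed and 18 newly passed it. The cause of these shifts was not tested. For Cdc6, Ccne1 and Ccne2 the counts of at most 49 per library limit what could be detected.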
